A study of Sus scrofa with 80 samples.

Results

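Ribosomal proteins of the cytosol and the factors that work with them were followed across endocrine tissues of young pigs. Members were the genes with a single symbol in the annotation of the array that begins with RPL, RPLP or RPS and a number, with EIF and a number or with EEF and a number, leaving out the RPS6K kinases and the sex-linked factors EIF1AY, EIF1AX and EIF2S3. This rule used the symbols and no measured value, and it found 103 of the 6765 genes with a single symbol. They comprised 37 proteins of the large subunit, 24 proteins of the small subunit, 9 subunits of eIF3, 4 subunits of eIF2B, 19 other initiation factors, 4 elongation factors and 6 associated genes (EEF1E1, EEF1AKMT1, RPL7L1, RPS19BP1, EIF2AK2 and EIF4EBP2). A gene with several probesets was represented by the one with the highest mean over all arrays, and 39 of the 103 genes had several.

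The cytosolic ribosome is built from a small subunit, which reads the messenger RNA, and a large subunit, which joins the amino acids. Initiation factors bring the small subunit to the capped end of the message and set the initiator tRNA on the start codon, and elongation factors deliver each further aminoacyl-tRNA. Cells are known to make the many ribosomal proteins in balanced amounts, and their messages are among the most abundant in most tissues.

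Messenger RNA was measured in 5 tissues of 16 pigs, namely backfat, gonad (testis or ovary), thyroid gland, adenohypophysis and hypothalamus with the mamillary body, with 1 array per pig and tissue. The design asked how expression varies with tissue, sex and breed. Large White, Duroc, Youli and Iberian pigs were represented by 4 animals each, with 2 males and 2 females per breed except Youli, with 3 males and 1 female. All pigs were slaughtered after 24 h of fasting, at mean ages of 87, 83, 80 and 89 days and mean live weights of 27.2, 23.1, 18.9 and 17.4 kg in the order of the breeds just given, so that breed, age and weight cannot be told apart. Testis (n = 9) and ovary (n = 7) were kept as separate classes beside the 4 other tissues (n = 16 each). Values are deposited GCRMA levels on the log2 scale, on which a difference of 1 is a doubling. Array medians lay between 4.67 and 5.04.

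Markers of 5 arrays stood apart from their labels. In the ovary labelled IBF25 the summed level of the 6 measured ovary markers was 4.81, against 12.34 to 13.50 in the other 6 ovaries. The backfat of YLM19 had a summed level of striated muscle markers of 17.37, against a median of 6.12 in backfat. Adenohypophysis markers reached 12.47 in the hypothalamus of YLM19, 12.48 in the thyroid gland of YLM19 and 15.58 in that of YLM20, against medians of 5.93 in hypothalamus and 5.69 in thyroid gland. For 11 of the 16 thyroid arrays the title conflicted with the breed and sex fields, and the title was used. With the 5 arrays left out, a choice made after seeing the data, each count of members called higher or lower than the other classes, and of those without overlap, stayed within 1.5 times its value.

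Most ribosomal proteins were read near the top of the scale. A mean of at least log2 12 was reached by 54 of the 61, so that differences among them may be compressed. At the other end RPL30 and RPS15A had every class mean below log2 5, and RPL26 was dim as well, so that these 3 probesets say little about their genes. Within a class the members varied little between animals: the median standard deviation was 0.17 for members and 0.34 for all genes. Across the 6 classes the median range of the class means was 1.02 for members and 1.47 for all genes. The other 81 genes with a mean of at least log2 12 had a median range of 1.21 and a median standard deviation of 0.21.

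All 103 members differed among the 6 classes by limma's moderated F (adjusted p under 0.05), where 96.9% of all genes did. The hypothalamus set the pattern. It had the lowest class mean for 81 members (78.6%), against 27.3% of all genes. Against the equal-weight mean of the other 5 classes, 89 members were lower in the hypothalamus and 8 higher, where 46.4% of all genes were lower and 28.5% higher. The median difference was -0.75 for members and -0.14 for all genes. A difference of at least 1 was found for 29 members lower and 3 higher, against 17.4% and 12.7% of all genes. These counts were 89 and 8, and 30 and 3, without the 5 arrays. In bulk tissue fewer cells of a type and less RNA per cell cannot be told apart.

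For 32 members (31.1%) every hypothalamus array lay below every array of the other classes, where 2.72% of all genes did so. These were 16 proteins of the large subunit, 11 of the small subunit, EIF3E, EIF3L, EIF4B, EIF2D and EEF1B2. Without the 5 arrays the number was 43. EEF1E1 was the single member for which every hypothalamus array lay above all others, where 3.31% of all genes did so.

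The median deviation of the 61 ribosomal proteins from the mean of the class means gave 1 value per array. In the hypothalamus it ran from -1.03 through a median of -0.62 to -0.50. The other classes lay higher, with medians of 0.16 in adenohypophysis, 0.06 in thyroid gland, 0.04 in backfat, 0.19 in testis and 0.19 in ovary, and the lowest value outside the hypothalamus was -0.30 in the muscle-marked backfat of YLM19. So the hypothalamus did not overlap with any other class. Within animals the hypothalamus was the lowest of the 5 tissues in 16 of 16 pigs, and the mean of the other 4 tissues exceeded it by 0.56 to 1.13, with a median of 0.75. The gonad was the highest of the 5 tissues in 11 of 16 pigs on the deposited scale. That ranking was not repeated under other scalings, and the testis and ovary medians (0.19 each) lay close to the 0.16 of adenohypophysis. Breed means in the hypothalamus were -0.73 in Large White, -0.67 in Duroc, -0.63 in Youli and -0.59 in Iberian pigs, and the ranges of the breeds overlapped. In backfat Large White stood at 0.12 to 0.17, above the -0.01 to 0.01 of Duroc. Its range overlapped with Youli (-0.30 to 0.12) and narrowly cleared Iberian pigs (-0.14 to 0.11). Breed differences of this value were not tested and were read on the deposited scale alone. For the 42 factors and associated genes the same measure was -0.58 to -0.38 in the hypothalamus, below the -0.11 to 0.29 of all other arrays.

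**Figure D1:**
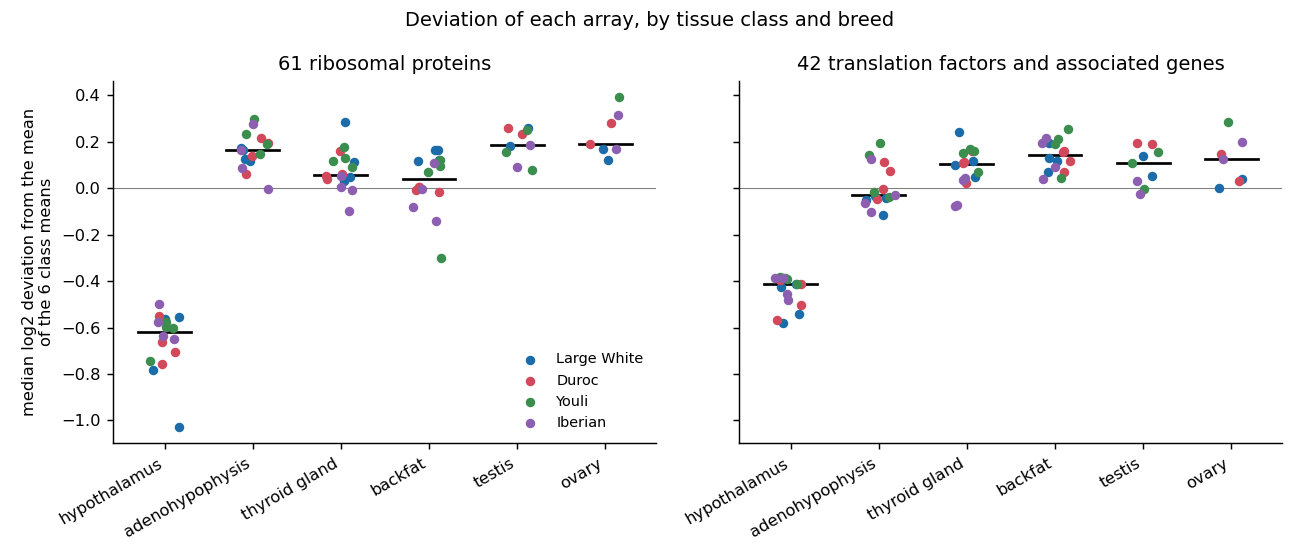
Each point is 1 array: the y axis gives the median log2 deviation of 61 ribosomal proteins (left) or of 42 factors and associated genes (right) from the mean of the 6 class means, by tissue class (x axis) and breed (colour), with a line at the class median. All 16 hypothalamus arrays sit below every other array in both panels, with ribosomal protein medians of -0.62 in hypothalamus and 0.04 to 0.19 elsewhere.

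The lower level was not shared to the same degree by other bright genes. Of the 54 ribosomal proteins with a mean of at least log2 12, 54 were lower in the hypothalamus, with differences from -2.39 to -0.33 and a median of -0.80. Of the 81 other genes in this range, 44 were lower and 30 higher, with a median of -0.27. The difference between these sets was not tested. RNA quality moved with it in part: the 3′ minus 5′ difference of the control probesets of elongation factor 1 alpha had a median of 0.67 in the hypothalamus and of 0.42 to 0.50 in the other classes. That of actin was 2.16 and 1.70 to 2.13, and that of GAPDH 1.42 and 1.49 to 2.19, so that GAPDH ran the other way. The part of RNA quality in the result was not tested.

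All but 1 of the 37 large subunit proteins were lower in the hypothalamus, 12 of them by at least 1, with a median of -0.84. RPL22L1, a close relative of RPL22, had the largest difference. It ran from 9.84 through a median of 10.40 to 10.60 in the hypothalamus, from 11.81 through 12.26 to 12.83 in the adenohypophysis and from 12.88 through 13.08 to 13.66 in the ovary. The hypothalamus thus stood clear of every other class, with a difference of -2.39 (SE 0.074, adjusted p = 8.08e-43), whereas thyroid gland, backfat and testis overlapped between 11.90 and 13.13. RPL22 itself differed by -0.72 in the hypothalamus and by 0.29 in the ovary.

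RPL8, which lines the catalytic centre of the large subunit, was at 10.70 to 11.15 (median 11.03) in the hypothalamus and at 11.76 to 13.11 in the other classes. Its difference was -1.44 (SE 0.048, adjusted p = 7.73e-41). RPLP0, the base of the stalk that binds translational GTPases, was at 12.55 to 13.18 (median 12.96) in the hypothalamus and at 13.42 or above elsewhere (difference -1.11, SE 0.037, adjusted p = 1.25e-40). RPL13, RPL29, RPL10A, RPLP2, RPL15, RPL14, RPL4, RPL5 and RPL3 were the other large subunit proteins lower by at least 1, with differences from -1.45 to -1.05. RPL13 was at 10.59 to 11.13 (median 10.89) in the hypothalamus and at 11.62 to 12.91 elsewhere. RPLP2, which forms the stalk with RPLP0, was at 10.65 to 11.74 (median 10.96) in the hypothalamus, overlapped with the thyroid gland (11.66 to 12.51) and was highest in backfat (12.08 to 13.23, median 12.84). The other 24 large subunit proteins called lower there differed by -0.95 (RPL12) to -0.33 (RPL38). RPL37 was the exception, at 8.65 to 9.70 (median 9.11) in the hypothalamus, 8.76 to 9.61 (median 9.16) in the adenohypophysis and 6.86 to 7.78 (median 7.31) in backfat. Hypothalamus and backfat did not overlap. RPL37 differed by 0.86 in the hypothalamus and by -1.32 in backfat (SE 0.086, adjusted p = 2.99e-23).

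Of the 24 small subunit proteins 23 were lower in the hypothalamus, 6 by at least 1, with a median of -0.77, and RPS15A, dim everywhere, did not pass the test. RPS6, the protein phosphorylated by the S6 kinases, gave the clearest separation. Its hypothalamus values ran from 11.42 through 11.96 to 12.17, and those of the other 5 classes lay between 13.19 and 13.58. In this narrow band the medians ran from 13.33 in testis to 13.45 in adenohypophysis, and the ranges of neighbouring classes overlapped. The difference of the hypothalamus was -1.48 (SE 0.032, adjusted p = 4.2e-53). RPS4X, an X-linked protein of the small subunit, was at 11.55 to 12.48 in the hypothalamus (median 12.28) and at 12.95 to 14.32 elsewhere, highest in testis (median 14.12), with a difference of -1.47 in the hypothalamus (SE 0.048, adjusted p = 2.45e-41). RPS27L, a relative of RPS27 known in human cells as a target of p53, had an order of its own: it was lowest in the hypothalamus (8.14 to 8.74, median 8.38), followed by the adenohypophysis (8.78 to 9.37, median 9.05) and highest in backfat (10.27 to 10.89, median 10.54). The first step had no overlap, and backfat overlapped with ovary at its lower end. RPS15, RPS9 and RPS25 were the remaining ones with a difference of at least 1, at -1.22, -1.11 and -1.04. RPS15 was at 11.66 to 12.59 (median 12.27) in the hypothalamus and highest in testis, at 13.58 to 13.93, while the thyroid gland (12.54 to 13.36) just reached the hypothalamus. The other 17 small subunit proteins called in the hypothalamus differed by -0.99 (RPS13) to -0.34 (RPS29).

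**Figure D2:**
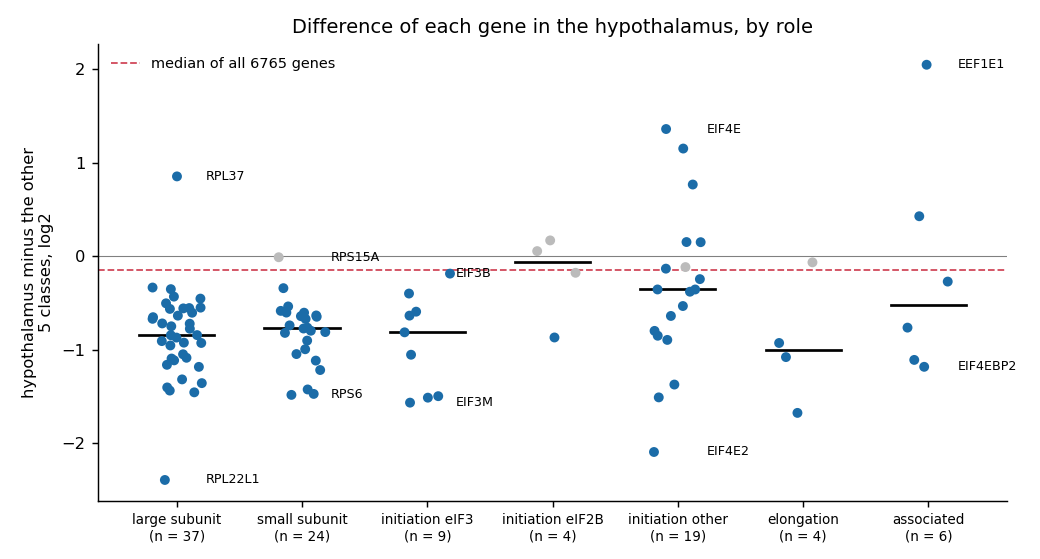
Each point is 1 gene: the y axis gives its log2 level in the hypothalamus minus the mean of the other 5 classes and the x axis its role, with blue for an adjusted p under 0.05, grey otherwise, and a line at the median of the role. The medians of the large subunit (-0.84), small subunit (-0.77) and eIF3 (-0.81) lie below the dashed median of all genes (-0.14), and EEF1E1 and EIF4E stand above zero.

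Subunits of eIF3, the large scaffold that holds the small subunit ready for the message, were lower in the hypothalamus in 9 of 9 cases, 4 of them by at least 1, with a median of -0.81. EIF3M ran from 9.38 through 9.61 to 10.08 in the hypothalamus and from 11.16 through 11.76 to 12.47 in the ovary. These classes did not overlap, and the adenohypophysis (10.08 to 10.81) lay between them. The differences were -1.56 (SE 0.060, adjusted p = 4.45e-37) in the hypothalamus and 1.10 (SE 0.084, adjusted p = 5.29e-19) in the ovary. EIF3E was at 9.70 to 10.80 (median 10.38) in the hypothalamus and at 11.50 to 12.30 elsewhere. EIF3L was at 7.91 to 8.80 (median 8.39) in the hypothalamus, at 9.12 to 10.02 (median 9.56) in the adenohypophysis and highest in the thyroid gland, at 9.85 to 10.81 (median 10.31). Both lay below all other arrays in the hypothalamus, EIF3L with a difference of -1.51 (SE 0.058, adjusted p = 8.61e-37). EIF3D, which can bind the cap of some messages in human cells, differed by -1.05 and EIF3K by -0.81. EIF3B, a core subunit, had the smallest of the 9 differences (-0.18). EIF3I departed from the rest. It was at 10.48 to 10.77 (median 10.59) in testis and at 8.70 to 10.41 in all other classes, where no value but the backfat of YLM19 exceeded 9.95. No testis array overlapped with another class, as for 1.3% of all genes, and the difference was 1.16 (SE 0.080, adjusted p = 1.47e-21). Its class mean was lowest in the thyroid gland, where the range of 8.70 to 9.75 overlapped with that of hypothalamus, 9.14 to 9.74.

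Factors around the cap of the message moved in opposite directions. EIF4E, which binds the cap, was highest in the hypothalamus, from 7.48 through 8.16 to 9.13, and lowest in backfat, from 5.30 through 6.33 to 7.09. The ranges of these tissues did not meet, and the other classes overlapped with both, except that the ovary (6.47 to 7.07) stayed below the hypothalamus. The differences were 1.36 (SE 0.121, adjusted p = 7.99e-17) in the hypothalamus and -1.07 (SE 0.121, adjusted p = 2.31e-12) in backfat. EIF4G3, a scaffold that joins EIF4E to the rest of the machinery, was at 9.71 to 10.50 (median 9.95) in the hypothalamus. It was at 8.16 to 9.75 elsewhere, and the single value inside the hypothalamic range was again the backfat of YLM19. The difference in the hypothalamus was 1.15 (SE 0.080, adjusted p = 4.02e-22).

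EIF4E2 binds the cap without engaging the scaffold and is known as a repressor of translation. It was at 3.43 to 5.25 (median 4.48) in the hypothalamus, 3.43 to 4.77 in the adenohypophysis, 5.89 to 7.16 (median 6.44) in thyroid gland, 6.51 to 8.28 (median 7.75) in backfat, 7.03 to 7.90 (median 7.64) in testis and 6.50 to 7.27 (median 6.73) in ovary. Hypothalamus and adenohypophysis overlapped with each other and with no other class. Its class means there, 4.44 and 4.09, were below log2 5, so that the size of differences against them rests on values near background. The differences were -2.51 in adenohypophysis (SE 0.117, adjusted p = 1.97e-31), -2.09 in hypothalamus, 1.85 in backfat and 1.63 in testis. Its other probesets, with means of 5.28 and 4.98, did not follow: the first differed by 0.24 in the hypothalamus, 0.13 in the adenohypophysis, -0.12 in backfat and -0.36 in testis, and the second by -0.22 in testis, each called against the representative.

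EIF4EBP2, which binds EIF4E and keeps it from the scaffold, was at 10.22 to 11.85 (median 10.92) in backfat and at 7.34 to 8.86 (median 8.54) in the hypothalamus. Backfat lay above all other classes but for 1 thyroid array at 10.24, with a difference of 1.85 (SE 0.107, adjusted p = 5.68e-26), and hypothalamus differed by -1.18 (adjusted p = 2.19e-16). Its 3 other probesets with means above log2 5 gave differences of 1.84, 2.58 and 2.88 in backfat. EIF4B, which helps the helicase that unwinds the leader, was at 9.64 or below (median 9.52) in the hypothalamus and at 10.39 to 11.64 elsewhere, without overlap (difference -1.51, SE 0.056, adjusted p = 6.54e-38). EIF4G1, the main scaffold, was higher in testis by 0.63.

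**Figure D3:**
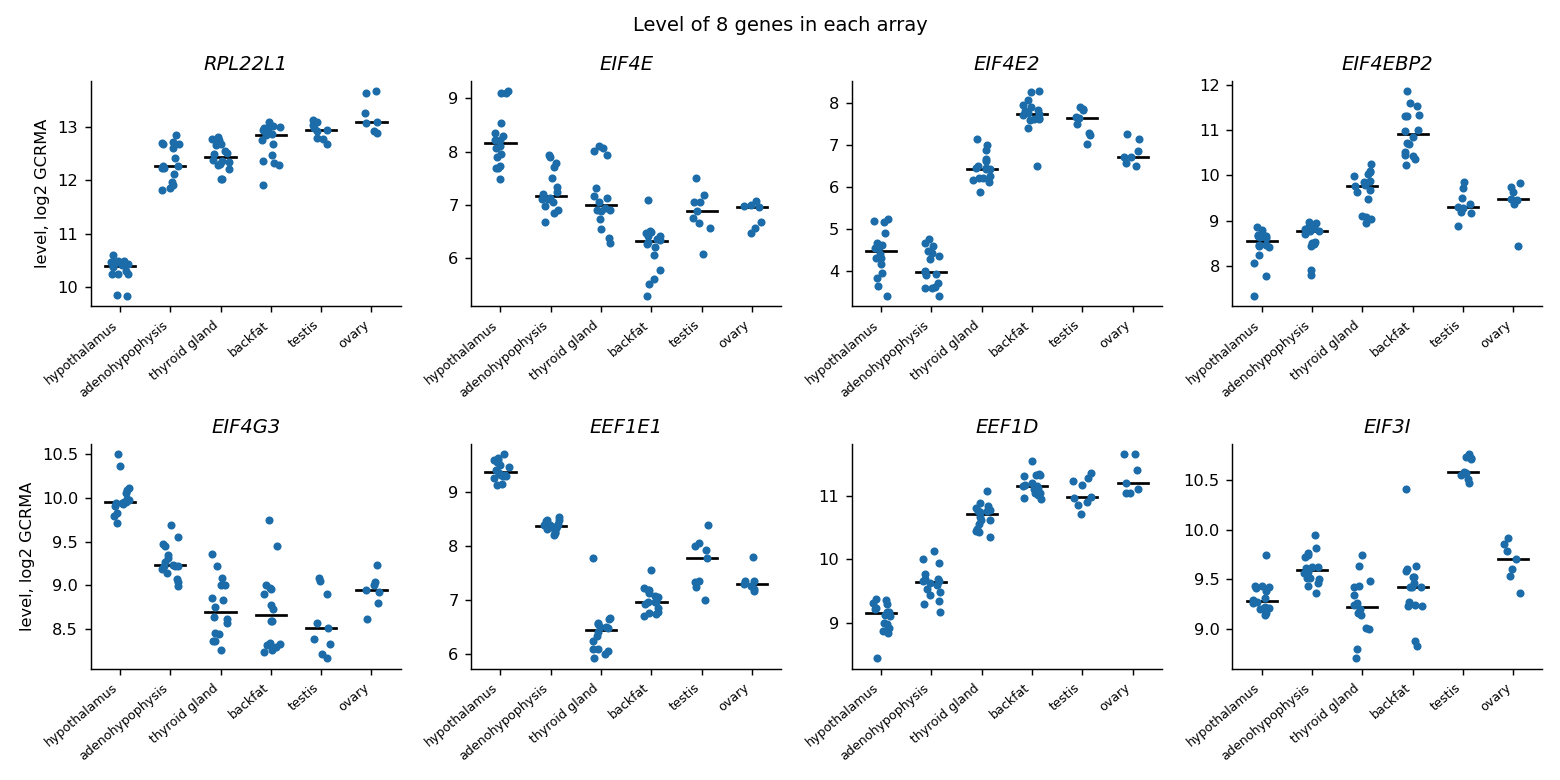
Each panel is 1 gene and each point 1 array: the y axis is the level in log2 GCRMA units with its own range in each panel, the x axis the tissue class, and the line the class median. EIF4E and EIF4G3 are highest in the hypothalamus (medians 8.16 and 9.95), where RPL22L1 and EEF1D are lowest (medians 10.40 and 9.15), and EIF3I is highest in testis (median 10.59).

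The other initiation factors were mixed: of 19, 13 were lower and 5 higher in the hypothalamus. EIF1B, a relative of the start codon factor EIF1, was at 11.23 to 12.23 (median 11.68) in the adenohypophysis, 11.11 to 11.90 (median 11.35) in the hypothalamus and 9.65 to 10.46 (median 10.03) in backfat. The first pair overlapped and both lay above backfat, with a difference of 1.12 (SE 0.069, adjusted p = 2.78e-24) in the adenohypophysis. EIF2D, which can deliver tRNA to the ribosome, was at 3.82 to 4.75 (median 4.52) in the hypothalamus, close to the low end of the scale, and at 4.82 to 6.50 elsewhere, without overlap (difference -1.37, SE 0.082, adjusted p = 2.11e-25). The eIF2 subunits EIF2S1 and EIF2S2, which carry the initiator tRNA, were highest in backfat, with differences of 0.48 and 0.49, and overlapped between classes. EIF2A, a factor for initiation without eIF2, was at 8.62 to 9.37 (median 8.96) in the hypothalamus and at 10.11 to 10.69 (median 10.38) in backfat, without overlap between these classes, and differed by -0.85 and 0.88. EIF1, which guards the choice of the start codon, showed the same order, with -0.64 in the hypothalamus and 0.63 in backfat. EIF6, which keeps the subunits apart, differed by -0.35 in the hypothalamus and 0.26 in the thyroid gland. Of the 4 subunits of eIF2B, the exchange factor that recharges eIF2, only EIF2B2 passed the test in the hypothalamus (-0.87). EIF2B2 was higher in the thyroid gland, at 8.37 to 9.42 (median 8.66) against a median of 8.12 in backfat, the next class, with which it overlapped (difference 1.03, SE 0.075, adjusted p = 9.13e-21). EIF2B3 was higher in testis, at 6.90 to 8.51 (median 7.79), against 6.30 to 7.47 (median 6.98) in the hypothalamus, which overlapped with it (difference 1.15, SE 0.117, adjusted p = 6.27e-14).

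Among the elongation factors EEF1B2, EEF1D and EEF1G, which together recharge EEF1A, were lower in the hypothalamus. EEF1B2 was at 11.91 to 12.66 there (median 12.46) and at 13.04 to 13.66 elsewhere, without overlap (difference -0.93, SE 0.041, adjusted p = 1.9e-33). EEF1G was at 11.20 to 12.07 (median 11.83) there and highest in the ovary, at 13.07 to 13.32, and backfat (12.04 to 12.87) just reached the hypothalamus (difference -1.08, SE 0.043, adjusted p = 3.47e-36). EEF1D ran from 8.45 through 9.15 to 9.38 in the hypothalamus, from 9.18 through 9.64 to 10.13 in the adenohypophysis and from 11.04 through 11.21 to 11.66 in the ovary. The first neighbours overlapped slightly, and both lay below all thyroid arrays (10.35 to 11.07). Its differences were -1.67 (SE 0.057, adjusted p = 1.67e-40), -1.03 (SE 0.057, adjusted p = 2.66e-27) and 1.00 (SE 0.079, adjusted p = 2.74e-18). EEF1A1, which carries aminoacyl-tRNA, did not pass the test in the hypothalamus (-0.06, adjusted p = 0.42) by its representative probeset. By another of its probesets, with a mean of 6.76, it differed there by -1.78. The brighter control probesets of elongation factor 1 alpha were not tested. Their 3′, middle and 5′ probesets had the lowest class means in the hypothalamus (14.46, 14.06 and 13.76), followed by backfat (14.63, 14.35 and 14.16).

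EEF1E1, known in mammals as a scaffold protein of the aminoacyl-tRNA synthetase complex, ran against the ribosome. It was at 9.14 to 9.71 (median 9.38) in the hypothalamus, 8.20 to 8.53 (median 8.37) in the adenohypophysis, 6.69 to 7.55 (median 6.96) in backfat and 5.91 to 7.77 (median 6.44) in the thyroid gland. The hypothalamus lay above all other arrays, and the highest thyroid value, in LWM02, reached into the range of the gonads. The differences were 2.05 (SE 0.079, adjusted p = 5.5e-37) in the hypothalamus and -1.54 (SE 0.079, adjusted p = 6.71e-29) in the thyroid gland, and its second probeset gave 2.22 and -1.87. RPS19BP1, which binds RPS19, was at 8.78 to 9.78 (median 9.47) in the thyroid gland, above the 6.63 to 8.72 of all other arrays, as were 1.23% of all genes, with a difference of 1.59 (SE 0.071, adjusted p = 1.49e-32). EEF1AKMT1, which methylates EEF1A, differed by -0.76 in the hypothalamus and 0.50 in backfat. EIF2AK2, the kinase that phosphorylates eIF2 in response to double-stranded RNA, differed by 0.43 in the hypothalamus and -0.71 in testis.

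The other classes were compared with a mean that holds the hypothalamus, so that a gene low there is raised in the rest, and their counts in part restate its level. Each was therefore also set against the mean of the other 4 classes without the hypothalamus, a choice made after seeing the data. In the adenohypophysis 60 were higher and 21 lower (29.3% and 38.6% of all genes), with a median of 0.16 for members and -0.05 for all genes. With the hypothalamus left out of the reference the split was 35 to 36 (28.6% and 40.2% of all genes), with a median of 0.01, and that of the 61 ribosomal proteins moved from 45 and 5 to 23 and 17. By either reference 5 of the 9 subunits of eIF3 and 3 of the 4 of eIF2B were lower. Differences of at least 1 were RPL26 and EIF1B higher and EIF4E2 and EEF1D lower, against 9.12% and 12.5% of all genes. RPL26 was dim here too, with a class mean of 5.70. In the thyroid gland 49 were higher and 14 lower (31.9% and 33.3% of all genes), but 18 and 39 without the hypothalamus (29.5% and 33.0%). After quantile normalization the latter split was 25 to 30 (29.7% and 33.3% of all genes). So no direction is given for members as a group in the thyroid gland. By at least 1 RPS19BP1 and EIF2B2 were higher and EEF1E1 lower there (9.9% and 9.46%). EIF2B2 fell just short, at 0.996, without animal LWF05, and stood at 0.90 without the hypothalamus. In backfat 45 were higher and 22 lower (39.6% and 38.0% of all genes), with EIF4E2, EIF4EBP2 and RPS27L higher and RPL37 and EIF4E lower by at least 1 (13.1% and 11.9%), of which RPS27L (0.91) and EIF4E (-0.83) fell short without the hypothalamus in the reference. The split at any size depended on the scaling: it was 75 to 10 with arrays centred on their medians and 33 to 35 after quantile normalization, and on the reference to 20 to 50 without the hypothalamus (37.6% and 38.7% of all genes), so that no direction is given for members as a group in backfat. RPL26L1 was the single member with every backfat array (median 9.45, highest 9.71) below all others, as was found for 0.665% of all genes.

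In testis 61 members were higher and 12 lower (34.3% and 28.1% of all genes), and EIF4E2, EIF3I and EIF2B3 were higher by at least 1 and none lower (10.8% and 9.82%). Without the hypothalamus in the reference 30 were higher and 23 lower (32.2% and 28.8% of all genes), with a median of 0.04, so that no direction is given for members as a group in testis. In ovary 70 were higher and 6 lower (28.9% and 27.9% of all genes), and 67 and 8 without the ovary of IBF25. With arrays centred on their medians the split was 45 to 16. Without the hypothalamus it was 44 to 10 (26.1% and 28.4% of all genes), with a median of 0.10, but 17 to 23 with median centring as well, so that the direction in ovary rests on the scaling. EIF3M, RPL22L1, EIF5B and EEF1D were higher by at least 1 in ovary and none lower (10.1% and 7.41% of all genes). EIF5B, the GTPase that joins the subunits, was at 9.03 to 10.44 (median 9.57) in ovary and at 7.58 to 8.61 (median 8.18) in hypothalamus, without overlap between these classes. These 4 differences, 1.00 to 1.10, lay close to the threshold. The count was 2 with the animal as a replicate block and 2 with sex as a covariate. It was also 2 with the mean over probesets, and of these genes EIF3M and EIF5B have several probesets. It was 0 with arrays centred on their medians and 0 without the hypothalamus in the reference. It was 3 without the ovary of IBF25 (EEF1D at 0.93), 2 without DUM12 or YLM19, and 1 without DUF14.

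**Figure D4:**
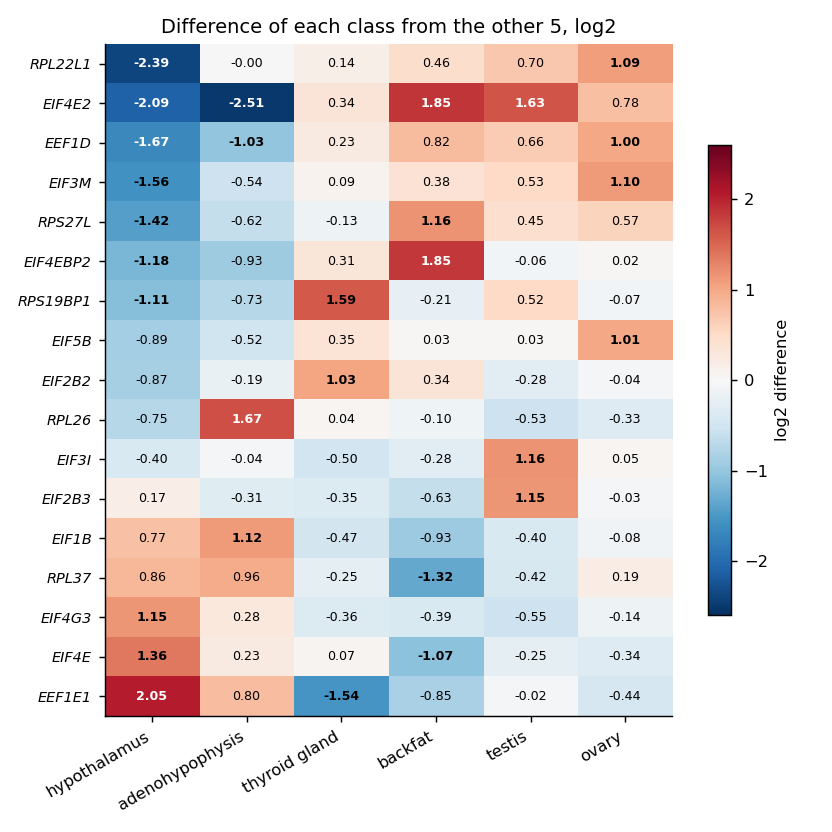
Each cell gives the log2 difference of a gene (row) in a tissue class (column) from the mean of the other 5 classes, in colour and figures, for 17 genes, the up to 4 with the largest called differences in each class and direction, sorted by the hypothalamus. Bold figures mark an adjusted p under 0.05 with a difference of at least 1, such as -2.51 for EIF4E2 in adenohypophysis, where its mean of 4.09 is near background, and 2.05 for EEF1E1 in hypothalamus.

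Testis and ovary were compared directly with breed as a covariate. At an adjusted p under 0.05, 10 members were higher and 15 lower in testis than in ovary, against 19.6% and 16.6% of all genes, and none differed by at least 1 in either direction (7.79% and 8.5% of all genes). The split was 16 to 3 with arrays centred on their medians and 8 to 28 after quantile normalization, so that it has no settled direction. Without YLF21, the single Youli female, 9 were lower. The genes named here were chosen after their values were seen. EIF3I was at 10.48 to 10.77 in testis and 9.36 to 9.92 in ovary, with a difference of 0.93 (SE 0.076, adjusted p = 3e-06) and no overlap. EIF2B3, at 6.90 to 8.51 in testis and 6.32 to 7.14 in ovary, overlapped (difference 0.94, SE 0.228, adjusted p = 0.00793). EIF4E2 and EIF4G1 were higher in testis by 0.72 and 0.52. RPL7L1, a relative of RPL7 that acts in ribosome assembly, was lower in testis, at 9.14 to 9.56 against 9.50 to 10.25, the ranges meeting at their edges (difference -0.57, SE 0.103, adjusted p = 0.00124). EIF5B (-0.76), EIF3M (-0.47) and EIF3K (-0.43) were lower too. Without the ovary of IBF25 these 8 genes kept their calls. On leaving out single animals the call of EIF5B was lost for 9 of 16 and that of EIF3M for 7 of 16. EIF3M depended on its probeset, and the mean of its probesets gave 0.03. No overlap between testis and ovary was found for 3 members (2.91%), EIF3I, EEF1G and RPL22, and for 12.6% of all genes.

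The difference between the sexes in the gonads was set against that in the other 4 tissues of the same pigs, and 20 members passed, where 32.4% of all genes did. EIF3I (0.92, adjusted p = 9.81e-05) and RPL7L1 (-0.60, adjusted p = 0.00223) were among them. Without YLF21 the number was 10, and without DUF14 it was 13. In the other tissues no member differed by sex in limma's test, in hypothalamus (0.0443% of all genes), adenohypophysis (0.65%), thyroid gland (0.0739%) or backfat (0.0148%). At an unadjusted p under 0.05 the numbers were 2, 11, 6 and 0 of 103 (1.94%, 10.7%, 5.83% and 0.0%), where 1.82%, 10.2%, 5.08% and 2.31% of all genes passed. RPS4X, for which males and females differed by 0.28 in the gonads, was not called by sex in any of these tissues.

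Breed was tested with sex as a covariate. Over the mean of the 5 tissues of each pig, EIF4A1, the helicase of the cap complex, was the single member called (adjusted p = 0.0484), where 1.2% of all genes were. At an unadjusted p under 0.05 it was 26 members (25.2%) and 21.3% of all genes. Iberian pigs had EIF4A1 levels of 8.82, 8.87, 8.70 and 8.96, Large White of 9.06, 9.04, 9.20 and 9.21, Duroc of 9.01, 8.96, 9.29 and 9.27, and Youli of 9.32, 9.30, 9.19 and 9.38. The highest Iberian and the lowest Duroc pig met at 8.96, and all other pigs lay above the Iberian values. The call was close to the threshold and held without YLM19, but was lost on leaving out any other single animal (15 of 16). Without LWM02 another member, RPS27L, was called in its place (adjusted p = 0.0382). With testis and ovary pooled as gonad, the Iberian mean was the lowest of the 4 breeds in each of the 5 tissues. It lay 0.18 to 0.54 below the mean of the others. In testis alone Iberian pigs were also lowest, by -0.37 against the other breeds. In ovary alone Duroc was lowest (-0.34), and Iberian pigs differed by -0.11. With all 80 arrays and the animal as a replicate block 22 members were called by breed in place of 1, where 16.1% of all genes were. EIF3L (adjusted p = 2.02e-05) and EIF4A1 (adjusted p = 3.96e-05) came first. This fit had tissue class but no sex term. It used a single correlation of 0.07 between arrays of the same pig, so that these arrays counted almost as independent.

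Within tissues calls by breed were few. In the adenohypophysis EIF3L was called (adjusted p = 0.0118, 0.281% of all genes). Its levels were 9.77, 9.97, 9.95 and 10.02 in Youli, 9.54, 9.60, 9.72 and 9.57 in Duroc, 9.37, 9.23, 9.30 and 9.56 in Large White, and 9.12, 9.24, 9.56 and 9.42 in Iberian pigs. Youli lay above all other breeds, by 0.45 (SE 0.058) over their mean, and without YLF21 the adjusted p was 0.0521. Youli also had the highest mean of EIF3L in each of the other tissues, with testis and ovary pooled as gonad. In testis alone Duroc was higher, by 0.17 against the other breeds, where Youli differed by 0.10. The ovary held a single Youli animal. In backfat EEF1G was called (adjusted p = 0.0469, 0.665% of all genes), with 12.82, 12.87, 12.66 and 12.73 in Youli, 12.65, 12.57, 12.66 and 12.67 in Duroc, 12.32, 12.42, 12.46 and 12.32 in Large White, and 12.04, 12.39, 12.30 and 12.47 in Iberian pigs. Youli and Duroc thus lay above Large White and Iberian without overlap, but the call was lost on leaving out any single one of 12 of the 16 animals (adjusted p of 0.0603 to 0.106). Without YLM19, whose backfat carried muscle markers, 10 members were called in backfat, where 1.71% of all genes were, with RPL22L1 first (adjusted p = 0.00791). No member was called in hypothalamus (0.192% of all genes), thyroid gland (0.695%), gonads (0.0296%), testis (0.0%) or ovary (0.0%), where 17, 23, 6, 8 and 7 had an unadjusted p under 0.05 (16.5%, 22.3%, 5.83%, 7.77% and 6.8%, against 16.1%, 17.4%, 11.2%, 18.5% and 7.38% of all genes). In the thyroid gland EIF4A1 was called without LWM02 and without LWF06.

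**Figure D5:**
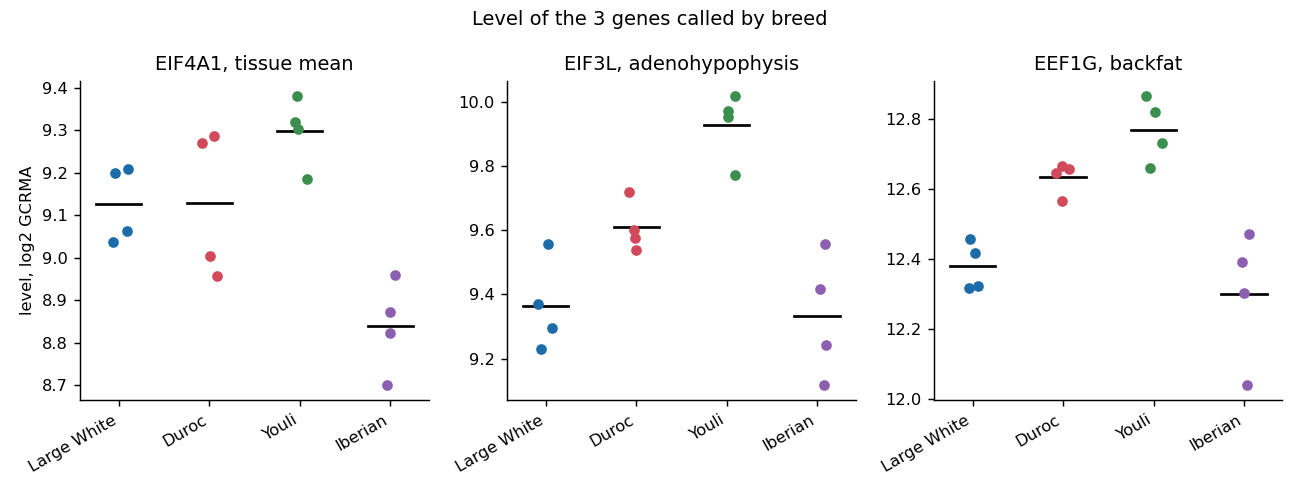
Each point is 1 pig: the y axis gives the log2 level of EIF4A1 (mean of 5 tissues), EIF3L (adenohypophysis) or EEF1G (backfat), the x axis the breed (n = 4 each), and the line the mean. Iberian pigs have the lowest EIF4A1 mean (values of 8.70 to 8.96, met at 8.96 by the lowest Duroc pig) and Youli the highest EIF3L values (9.77 to 10.02).

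Ribosomal proteins also varied together between animals of a tissue. Over the 54 bright ones the median pairwise correlation was 0.68 in backfat, 0.67 in ovary, 0.54 in hypothalamus, 0.47 in thyroid gland, 0.46 in adenohypophysis and 0.39 in testis, against 0.03 to 0.14 for the 42 factors and associated genes. Genes read on the same array share its quality and scale, so these are descriptions over 7 to 16 arrays. In backfat the largest departure was the YLM19 array, at -0.30 against -0.14 to 0.17 in the other 15.

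Of 8 paralogue sets with several measured genes, 4 held genes called in both directions in the hypothalamus and in 4 all genes were lower. Over the whole array 46.4% of genes were lower there and 28.5% higher. EIF4A2 and EIF4A3, relatives of the helicase EIF4A1, differed in the hypothalamus by 0.15 and -0.80, where EIF4A1 differed by -0.13. EIF4A1 was lowest in the thyroid gland, at 7.95 to 8.99 (median 8.55), EIF4A2 highest in the adenohypophysis, at 13.42 to 14.01 (median 13.82), and EIF4A3, known as a part of the exon junction complex, highest in the ovary, at 9.97 to 11.24 (median 10.25). Each of these ranges overlapped with that of another class. EIF4G2, a relative of the scaffold that acts without EIF4E, differed by -0.24, where EIF4G3 differed by 1.15. EIF1B was higher by 0.77 and EIF1 differed by -0.64. The sets that were lower throughout were RPL22 with RPL22L1, RPS27 with RPS27L, RPL26 with RPL26L1 and EEF1B2 with EEF1D. The probeset of RPL26 is dim (mean 4.38), so that its set says little. In the set of EIF4E with EIF4E2, called in both directions, EIF4E2 is near background in the hypothalamus. Another EIF4E2 probeset was called higher there, so that this set says little as well. Among members without a measured paralogue, RPL36AL was highest in the adenohypophysis (12.92 to 13.50, median 13.19) and differed by -0.87 in the hypothalamus. EIF5A, which relieves stalled ribosomes, differed by -0.35 in the hypothalamus and 0.38 in testis. The steadiest members with a mean of at least log2 8 were EIF4H, EIF4G2, EIF6, RPL31 and RPL38, whose class means ranged over 0.28 to 0.54.

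Most other probesets of the members followed the representative in the hypothalamus. Of 53 other probesets 44 had the same sign there and 3 were called in the opposite direction, those of EIF4E2, EIF4H and RPS27A. For differences of at least 1 in any class agreement was weaker. Of 28 pairs of another probeset and a class where the representative had such a call, 19 had the same sign. In 5 the other probeset was called in the opposite direction. The second RPS27A probeset, with a mean of 8.60, was higher in the hypothalamus by 1.82, whereas the representative differed by -0.64. RPS27A encodes ubiquitin fused to a small subunit protein. Copies of ribosomal protein genes are common in mammalian genomes, so that a probeset may also read relatives.

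Other genes of translation were counted for comparison. Of 9 further genes of cytosolic translation, 9 were lower in the hypothalamus and none higher, with a median of -1.21, among them PABPC4 (-1.78) and PABPC1 (-1.70), which bind the poly(A) tail, and RACK1 (-1.48), a protein of the small subunit. Of 61 genes of the mitochondrial ribosome and its factors 32 were lower and 13 higher there, with a median of -0.19, not far from the 46.4% and 28.5% and the -0.14 of all genes. Among 15 aminoacyl-tRNA synthetases 10 were higher and 2 lower, with a median of 0.51. AARS differed by 1.49 and KARS by -1.43. Of 23 genes of ribosome biogenesis 15 were lower and 3 higher in the hypothalamus (median -0.31). In testis 15 of these were higher and 5 lower (median 0.37), where 34.3% and 28.1% of all genes were. DKC1 was higher there by 1.31 and the nucleolar methyltransferase FBL by 1.06. In ovary 12 were higher and 2 lower (median 0.39), where 28.9% and 27.9% of all genes were, and FBL was higher by 1.23. Of 6 genes of the integrated stress response 5 were higher and 1 lower in backfat, where 39.6% and 38.0% of all genes were. ATF4, the central transcription factor of this response, was higher there by 1.44. List counts in testis, ovary and backfat used the reference that holds the hypothalamus. They are not given without it or under other scalings, so that no direction is drawn from them.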

How the data were processed

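RNA of each tissue was hybridized to the Affymetrix Porcine GeneChip and read with GCOS. GCRMA was run by the authors on the 80 arrays jointly, and their log2 levels were analysed as deposited, with no further scaling. Of 24123 probesets 124 controls were left out, and symbols came from the annotation of the platform. Versions of GCOS and GCRMA are not given in the sources used here. The number of arrays limits the precision.

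In limma 3.58.1 (R 4.3.3) every probeset was fitted, with Benjamini-Hochberg adjustment over all 23999 and two-sided tests. Tissue classes were compared over 80 arrays with breed as covariate, each class against the equal-weight mean of the other 5. Sex was tested within tissues with breed, and breed with sex, as covariate. Replicates are separate animals. Tissues pair by animal, from the titles, and residuals of the same pig correlated with a mean r of 0.08 to 0.27 over all genes (above 0.1 in 12 of 16 pigs) and of 0.00 to 0.44 over the members (14 of 16). Alternatives were a low-signal filter at log2 5, median centring, quantile normalization, a trend and robust prior, the mean over probesets, the replicate block, sex as covariate and leaving out each animal; leaving out the arrays that stood apart, or the hypothalamus from the reference of the other classes, was chosen after seeing the data. Calls used an adjusted p under 0.05, for classes also with a log2 difference of at least 1. Data were simulated with noise independent between arrays and log2 shifts in 200 of 23999 probesets, of 2 for class and testis and 1 for breed. Of these 200 were recovered for the backfat class, 192 for testis against ovary, 181 for breed over the tissue mean and 86 for breed in backfat. False calls numbered 0, 2, 14 and 8. Smaller differences, such as those reported here by breed and between testis and ovary, were not simulated.

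Genes named were those with the largest called differences per class, those called by breed, paralogue sets and the steadiest members; others were chosen after their values were seen. The members and lists were chosen with earlier results of these data known. Of 38 paralogue symbols 24 were measured. EEF1E1 and EEF1AKMT1 were counted as associated genes, not as elongation factors.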

Additional observations from a re-analysis of the deposited data

Results flagged for a closer look

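A single sample stood apart in 7 of 112 groups examined, where chance gives about 1 in 20. For the ribosomal protein index these were the hypothalamus of YLM18 among Youli pigs (-0.74 against a median of -0.60 in the others) and the backfat of YLM19 (-0.30 against 0.10), whose array also carried striated muscle markers. For the factor index it was the thyroid gland of YLM18 (0.071 against 0.16). Among ovaries, IBF22 stood apart for EEF1E1 (7.79 against a median of 7.28) and EIF4EBP2 (8.45 against 9.54), and YLF21 for EIF4A1 (9.83 against 9.26). Among testes YLM19 stood apart for RPL22 (13.23 against 13.56).

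The sex difference of 20 members in the gonads differed from that in the other 4 tissues, by the test of that difference in the same animals, where 32.4% of all genes passed. Without YLF21 the number was 10. The control probesets of elongation factor 1 alpha, left out of all comparisons, carried strong signal. The 3′ probeset was lower in the hypothalamus by -0.33 than in the mean of the other classes. The representative probeset of EEF1A1 differed there by -0.06. The middle and 5′ control probesets also had their lowest class means in the hypothalamus (14.06 and 13.76), followed by backfat (14.35 and 14.16).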

How the results depend on the processing

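The lower level of the members in the hypothalamus held under every setting tried: the count at any size stayed between 87 and 91 and that with a difference of at least 1 between 24 and 30. Other counts moved. With arrays centred on their medians, members lower in backfat by at least 1 numbered 1, those higher in ovary 0, and those higher in testis than ovary 2, and calls by breed 0 over the tissue mean and 0 in adenohypophysis. At any size this gave 75 higher and 10 lower in backfat, 45 higher and 16 lower in ovary, and 16 higher and 3 lower in testis than ovary, while it shifted the median of all genes by over 0.1 in backfat and ovary. Quantile normalization gave 1 member lower in adenohypophysis, 31 beyond the other tissues for sex in the gonads, breed calls of 0 over the tissue mean, 2 in adenohypophysis and 0 in backfat, and at any size 35 lower in backfat and 28 lower in testis than ovary. With the mean over probesets the counts were 1 lower in adenohypophysis, 5 higher in testis and 2 higher in ovary, and EIF3M turned to 0.0261 in testis against ovary. The low-signal filter and the trend and robust prior each left 0 breed calls over the tissue mean and 0 in backfat. With the animal as a replicate block 2 members were higher in ovary. In the blocked fit of breed, which had no sex term, 22 differed, where 16.1% of all genes did. Sex as a covariate left 2 higher in ovary. The block changed no other count by over 1.5 times. Leaving out each animal in turn gave 1 to 2 members higher in thyroid gland, 1 to 4 higher in ovary, 0 to 1 higher in testis than ovary, 10 to 22 beyond other tissues, 9 to 18 lower in testis than ovary at any size, and by breed 0 to 1 over the tissue mean, 0 to 1 in adenohypophysis, 0 to 1 in thyroid gland and 0 to 10 in backfat. With the hypothalamus left out of the reference, 4 members were higher in adenohypophysis, 1 in thyroid gland and 0 in ovary by at least 1, and 1 was lower in backfat. At any size it gave 35 higher and 36 lower in adenohypophysis, 18 and 39 in thyroid gland, 20 and 50 in backfat, 30 and 23 in testis and 44 and 10 in ovary. Of 37 results on single genes 19 kept their call under all settings. The shifts on leaving out the hypothalamus follow from the change of reference. The cause of the others was not tested.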
